A study of Mus musculus with 18 samples.

Results

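The glycolysis and hypoxia response genes examined here were 35 of the 16248 genes in the expression table, chosen by name: 20 genes of glycolysis and of the fate of pyruvate, and 15 genes of the response to low oxygen. All 35 were present. For 34 of them the level was high enough to be tested, which required at least 1 FPKM in at least 3 libraries. FPKM are fragments counted on a gene, divided by its length in kilobases and by a size set for each library. The remaining gene, Eno2 (the neuronal form of enolase), lay between 0.0961 and 1.01 FPKM in the 18 libraries and was not tested.

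Bulk RNA-seq was carried out on endothelial cells (ECs), which form the inner lining of blood vessels, from female mice of the FVB strain. Normal ECs were taken from mammary fat pads without tumour in wild type mice. MMTV-PyMT ECs came from spontaneous breast tumours of MMTV-PyMT mice, in which the mouse mammary tumour virus promoter drives the polyoma middle T oncogene in the mammary epithelium, and these mice were 9 weeks old when treatment began. Implanted ECs came from tumours of wild type FVB hosts. Tumour nodules of MMTV-PyMT mice were dissociated, the tumour cells were grown in culture for a short time and were placed with Matrigel, a basement membrane gel, into the mammary fat pad of hosts 8 to 9 weeks old. The age of the wild type mice behind the normal ECs is not given in the sources used here. Each tissue was collected 3 h after injection of PBS or of cGAMP, the small second messenger that binds and switches on STING, an adaptor of the cytosolic DNA response. There were 6 groups of 3 libraries. Sorting kept live cells without CD45 and with CD31, and each library held the RNA of many cells, so fewer cells of a type and less RNA per cell cannot be told apart.

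Glycolysis splits glucose into pyruvate, which lactate dehydrogenase turns into lactate when it is not burned in mitochondria, and ECs are known to make most of their ATP in this way, also when oxygen is plentiful. When oxygen falls, prolyl hydroxylases of the Egln family stop marking the alpha subunits of the hypoxia-inducible factors (HIF) for degradation. The stabilised factors then bind short DNA motifs with the core ACGTG or GCGTG near their target genes, among which are most glycolytic enzymes and genes such as Adm, Ndrg1 and P4ha1.

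That core was frequent before the start sites of these genes. RefSeq promoter sequences (assembly GRCm38.p6) were found for 31 of the 35 genes, with 46 start sites, and none was found for Epas1, Bnip3l, Ndrg1 and Ero1l. In the 250 bases before the start, ACGTG or GCGTG on either strand was present for 28 of the 31 genes (90.3%), against 11226 of 27025 genes in the whole RefSeq set (41.5%). ACGTG was present for 16 of the 31 genes (51.6%) against 18.5% of all genes, and GCGTG for 22 of 31 (71.0%) against 30.9%, some genes holding both. The median GC content of these windows was 61.9% for the 31 genes and 52.4% for all genes. A gene counted when any of its windows matched, with 46 windows for the 31 genes and 32851 for all 27025. The 31 genes were chosen by name from pathways known to hold HIF targets, so a high share could follow from the choice. The whole set also holds genes outside the expression table, and the difference was not tested. A match is a string of letters and was not shown to be a binding site in these cells. The windows of 4 genes on which the results turn are shown 5′ to 3′ on the strand of the gene, with each match in capitals (CACGT and CACGC are the 2 cores read on the other strand, and CACGTG holds the core on both strands). Pfkfb3 was the gene with the largest cGAMP effect (chr2:11502091-11502340, minus strand; of its 2 start sites, the one with more matches). Egln3 had the largest difference between tissues (chr12:54203875-54204124, minus strand), Pgk1 was a glycolytic enzyme that differed among all tissues (chrX:106186850-106187099, plus strand), and Adm rose with cGAMP in implanted ECs (chr7:110627407-110627656, plus strand).
Pfkfb3: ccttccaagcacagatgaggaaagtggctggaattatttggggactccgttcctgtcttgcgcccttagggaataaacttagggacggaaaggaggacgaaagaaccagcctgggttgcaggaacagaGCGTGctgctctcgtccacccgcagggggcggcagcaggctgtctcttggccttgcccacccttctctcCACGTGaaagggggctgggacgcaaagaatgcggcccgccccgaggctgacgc
Egln3: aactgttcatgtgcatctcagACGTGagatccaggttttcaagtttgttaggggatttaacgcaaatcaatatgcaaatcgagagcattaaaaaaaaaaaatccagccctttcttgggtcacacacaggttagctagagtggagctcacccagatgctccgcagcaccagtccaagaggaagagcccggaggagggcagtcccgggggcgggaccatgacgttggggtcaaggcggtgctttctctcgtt
Pgk1: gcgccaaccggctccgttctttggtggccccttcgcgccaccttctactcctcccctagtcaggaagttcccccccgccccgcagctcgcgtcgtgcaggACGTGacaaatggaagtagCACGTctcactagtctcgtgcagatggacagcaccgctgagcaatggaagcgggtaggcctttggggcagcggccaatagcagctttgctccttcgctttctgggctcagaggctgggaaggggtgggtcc
Adm: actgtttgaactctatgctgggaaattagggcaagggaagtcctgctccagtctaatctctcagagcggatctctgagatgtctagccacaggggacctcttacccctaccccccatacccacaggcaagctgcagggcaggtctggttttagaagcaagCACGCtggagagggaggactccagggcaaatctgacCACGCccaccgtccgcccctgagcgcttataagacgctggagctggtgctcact

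Converted back to whole reads, the libraries held 9184556 to 12200414 each. All 10 endothelial markers were listed, with Pecam1 (CD31) at 138 to 177 FPKM in MMTV-PyMT PBS and at 221 or more in the other PBS groups. Their sum was 1135 to 1301 FPKM in normal PBS, 768 to 956 in MMTV-PyMT PBS and 1255 to 1584 in implanted PBS. RNA of other cell types was present too, and in MMTV-PyMT PBS the epithelial sum was as high as the endothelial one. Summed over 9 epithelial and tumour markers (Epcam, Cdh1, keratins, Csn2 and Wap, all 9 listed), levels were 452 to 606 FPKM in normal PBS, 906 to 1048 in MMTV-PyMT PBS and 428 to 605 in implanted PBS. The sum of 9 mural cell and fibroblast markers was 870.4 to 992 FPKM in normal PBS, 369 to 435 in MMTV-PyMT PBS and 439.8 to 449.8 in implanted PBS. In implanted cGAMP it spread from 399 to 883, and the sum of the 8 listed leukocyte markers (of 11) from 131 to 427. Of the leukocyte list Itgam, S100a8 and S100a9 were not in the table, and of 5 adipocyte markers none was. Exons of Pkm, Pfkm and Hif1a overlap another gene on the same strand, those of 12 of the 35 genes overlap one on the opposite strand, and Aldoa, Gapdh, Pgk1, Pgam1, Ldha and Bnip3l have annotated pseudogene copies. Counting may have split or dropped reads there, and whether it used the strand is not given in the sources used here, so the levels of these genes are uncertain to that extent.

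Between tissues under PBS, most glycolysis genes stood higher in tumour ECs, and the hypoxia response genes were split. The comparison asks how the metabolic programme of ECs differs between a healthy breast and 2 kinds of tumour before any stimulus. A gene was called when its adjusted p was under 0.05 (limma, Benjamini-Hochberg adjustment over all 13983 tested genes, no limit on the size of the change). In MMTV-PyMT against normal ECs, 20 of 34 genes were higher (58.8%, against 29.8% of all tested genes) and 10 lower (29.4%, against 26.6%). In implanted against normal ECs, 23 were higher (67.6%, against 25.0%) and 4 lower (11.8%, against 23.6%). Implanted against MMTV-PyMT ECs gave 22 higher (64.7%, against 20.8%) and 4 lower (11.8%, against 24.6%). The median log2 difference of the 34 genes was 0.37, 0.88 and 0.61 in these comparisons, beside 0.02, 0.01 and -0.01 for all tested genes. The 3 comparisons share their PBS libraries and are not independent of each other. Because FPKM sums differed between tissues, scaling each library to the same sum shifted the median of all tested genes by -0.22 in MMTV-PyMT against normal and by -0.24 in implanted against normal. Under it the splits became 15 higher and 10 lower (against 17.2% and 40.6% of all tested genes), and 19 higher and 6 lower (against 13.8% and 41.1%).

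**Figure D1:**
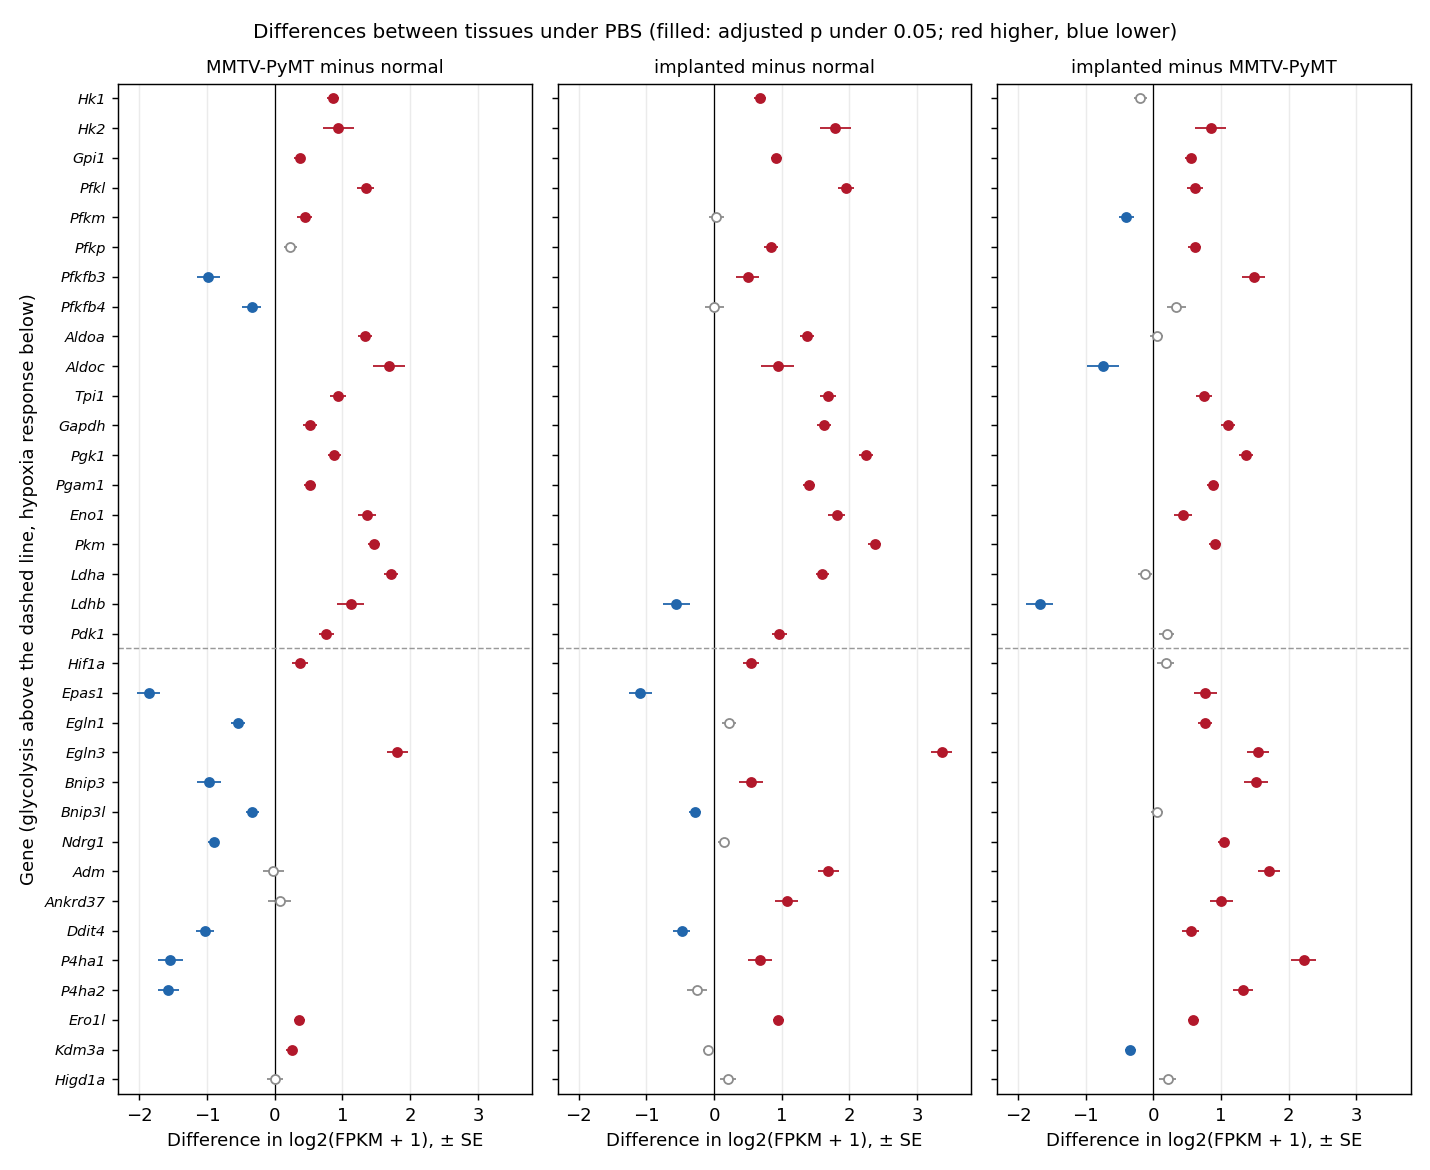
Differences in log2(FPKM + 1) with standard errors between tissues under PBS for the 34 tested genes, 3 libraries per group; filled red points were called higher, filled blue points lower, open grey points were not called. Nearly every glycolysis gene above the dashed line lies to the right of 0 against normal ECs, and Egln3 reaches 3.36 in implanted against normal.

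The enzymes from aldolase to pyruvate stood higher together. All 8 tested members (Aldoa, Aldoc, Tpi1, Gapdh, Pgk1, Pgam1, Eno1 and Pkm) were called higher in both tumours than in normal ECs, with median log2 differences of 1.13 in MMTV-PyMT and 1.65 in implanted. Pkm, the pyruvate kinase that ends the pathway (GRCm38 chr9:59656368-59679375), was at 57.6, 55.2 and 57.4 FPKM in normal PBS, at 144, 169 and 160.3 in MMTV-PyMT PBS and at 303, 315 and 275 in implanted PBS. The 3 groups did not overlap. The log2 difference from normal was 1.46 ± 0.09 (SE; adjusted p = 4.48e-09, limma) in MMTV-PyMT and 2.37 ± 0.09 (adjusted p = 4.36e-11) in implanted.

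Pgk1, the phosphoglycerate kinase that makes ATP midway through the pathway (chrX:106187100-106203699), was at 18.2, 19.4 and 19.4 FPKM in normal PBS, at 32.2, 38.3 and 36.7 in MMTV-PyMT PBS and at 96.9, 94.5 and 89.2 in implanted PBS. Again no tissue overlapped another. Its log2 difference from normal was 0.88 and 2.24, and implanted exceeded MMTV-PyMT by 1.37 ± 0.10 (adjusted p = 7.99e-08, limma). Gapdh, the step before it, was 46.6 ± 0.505 FPKM (SD, n = 3) in normal PBS, 67.5 ± 6.47 in MMTV-PyMT PBS and 146 ± 7.54 in implanted PBS. Tpi1, Pgam1 and Eno1 followed the same order, with log2 differences of 0.75, 0.88 and 0.44 between implanted and MMTV-PyMT, all called.

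The 2 aldolases parted from that order. Aldoa, the main form, was 76.4 ± 2.40 FPKM in normal PBS, 194 ± 23.7 in MMTV-PyMT PBS and 199.6 ± 14.7 in implanted PBS, and the 2 tumours differed by 0.05 on the log2 scale, which was not called (adjusted p = 0.728, limma). Aldoc was at 14.5, 14.0 and 12 FPKM in normal PBS, at 35.9, 47.2 and 55.3 in MMTV-PyMT PBS and at 33.7, 21.1 and 26.7 in implanted PBS. Both tumours lay above every normal library, and MMTV-PyMT lay above implanted. The log2 difference was 1.69 in MMTV-PyMT, 0.94 in implanted and -0.74 between implanted and MMTV-PyMT (adjusted p = 0.0204, limma). The last call was lost without implanted PBS 2 (-0.58), MMTV-PyMT PBS 2 (-0.72) or MMTV-PyMT PBS 3 (-0.61).

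In the steps from glucose to fructose bisphosphate, 5 of 6 genes were called higher in each tumour than in normal ECs. That is 83.3%, against 29.8% of all tested genes in MMTV-PyMT and 25.0% in implanted. Pfkl, the liver type phosphofructokinase, was at 14.0, 13.5 and 12.5 FPKM in normal PBS, at 29.9, 39.5 and 37.4 in MMTV-PyMT PBS and at 56.5, 50.1 and 56.6 in implanted PBS. The tissues did not overlap. Its log2 difference from normal was 1.34 ± 0.12 and 1.95 ± 0.12 (adjusted p = 1.85e-07 and 3.16e-09, limma). Pfkm, the muscle type, was 6.93 ± 0.340 FPKM in normal PBS, 9.75 ± 0.804 in MMTV-PyMT PBS and 7.14 ± 0.830 in implanted PBS, and it was the only gene of these steps called lower in implanted than in MMTV-PyMT (log2 -0.40). Pfkp, the platelet type, had 6.10, 5.81 and 5.96 FPKM in normal PBS, 7.82, 7.33 and 6.40 in MMTV-PyMT PBS and 11.3, 12.1 and 10.9 in implanted PBS. Its implanted libraries lay above all others, by 0.84 over normal (adjusted p = 3.35e-06, limma), while the difference of 0.23 between MMTV-PyMT and normal was not called (adjusted p = 0.0530).

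Hexokinases trap glucose in the cell as glucose 6-phosphate. Hk1 was the main form, at 19.7 ± 0.734 FPKM in normal PBS, 36.7 ± 1.77 in MMTV-PyMT PBS and 32.1 ± 2.39 in implanted PBS. Hk2, the inducible form, was at 1.31, 0.848 and 0.526 FPKM in normal PBS, at 2.30, 3.25 and 2.28 in MMTV-PyMT PBS and at 5.92, 4.26 and 6.41 in implanted PBS. Low as it was, it did not overlap between tissues. Its log2 difference from normal was 0.94 in MMTV-PyMT (adjusted p = 0.00284, limma) and 1.79 in implanted (adjusted p = 1.19e-05). Gpi1, the glucose phosphate isomerase, was higher by 0.37 and 0.92. With every library scaled to the same FPKM sum, the calls of Gpi1 (0.10) and Pfkm (0.19) in MMTV-PyMT against normal were lost.

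The enzymes that make fructose 2,6-bisphosphate, an activator of phosphofructokinase, ran against the rest in MMTV-PyMT ECs. Pfkfb3, the form known to drive glycolysis in sprouting ECs (chr2:11471433-11554077), was at 18.1, 20 and 20.6 FPKM in normal PBS, at 10.6, 8.10 and 9.69 in MMTV-PyMT PBS and at 29.9, 24.3 and 30.5 in implanted PBS. MMTV-PyMT lay lowest and implanted highest, with no overlap. The log2 difference from normal was -0.98 ± 0.17 in MMTV-PyMT (adjusted p = 0.000166, limma) and 0.50 ± 0.17 in implanted (adjusted p = 0.0230). The latter call was lost with the same FPKM sum (0.21) and without normal PBS 1 (0.45), implanted PBS 1 (0.46) or implanted PBS 3 (0.45). Pfkfb4, a scarce relative, was 0.546 ± 0.152 FPKM in normal PBS, 0.221 ± 0.122 in MMTV-PyMT PBS and 0.544 ± 0.0976 in implanted PBS, and its call lower in MMTV-PyMT (-0.34) was lost when any of 11 single libraries was left out (-0.37 to -0.26).

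At the fate of pyruvate, the 2 lactate dehydrogenases separated the tumours. Ldha, the form that favours lactate, was at 64.1, 60.1 and 65.2 FPKM in normal PBS, at 183, 218 and 232 in MMTV-PyMT PBS and at 195, 197 and 188 in implanted PBS. Both tumours lay far above normal and overlapped each other. The log2 difference from normal was 1.72 ± 0.10 and 1.60 ± 0.10 (adjusted p = 3.72e-09 and 4.87e-09, limma). Ldhb, the form that favours pyruvate, was at 18.4, 17.5 and 15.6 FPKM in normal PBS, at 34.0, 40.4 and 41.2 in MMTV-PyMT PBS and at 13.6, 9.49 and 11.2 in implanted PBS. Here MMTV-PyMT was highest and implanted lowest, without overlap. The log2 difference of implanted was -1.68 from MMTV-PyMT (adjusted p = 9.44e-06, limma) and -0.56 from normal (adjusted p = 0.0309). The call against normal was lost without normal PBS 1 (-0.51), normal PBS 2 (-0.54), implanted PBS 2 (-0.44) or implanted PBS 3 (-0.55). Pdk1, a kinase that keeps pyruvate from being burned in mitochondria, was higher by 0.76 in MMTV-PyMT and 0.96 in implanted than in normal ECs.

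Isoenzyme shares followed. As a share of the summed FPKM of Ldha and Ldhb, Ldhb made up 21.4% ± 1.80 (SD, n = 3) in normal PBS, 15.5% ± 0.323 in MMTV-PyMT PBS and 5.57% ± 0.952 in implanted PBS. Pfkl made up 50.9% ± 1.95 of the phosphofructokinases in normal PBS, 67.5% ± 4.07 in MMTV-PyMT PBS and 74.5% ± 2.57 in implanted PBS, and Pfkm 26.4%, 18.7% and 9.80%. Under cGAMP the share of Pfkp was 38.7% ± 0.546 in normal and 30.4% ± 6.03 in implanted, against 22.7% ± 0.417 and 15.7% ± 1.41 under PBS. Hk2 made up 4.28% of hexokinase in normal PBS and 11.1% in normal cGAMP, 6.61% and 15.4% in MMTV-PyMT, and 14.7% and 19.5% in implanted. These shares describe the levels above and were not tested.

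**Figure D2:**
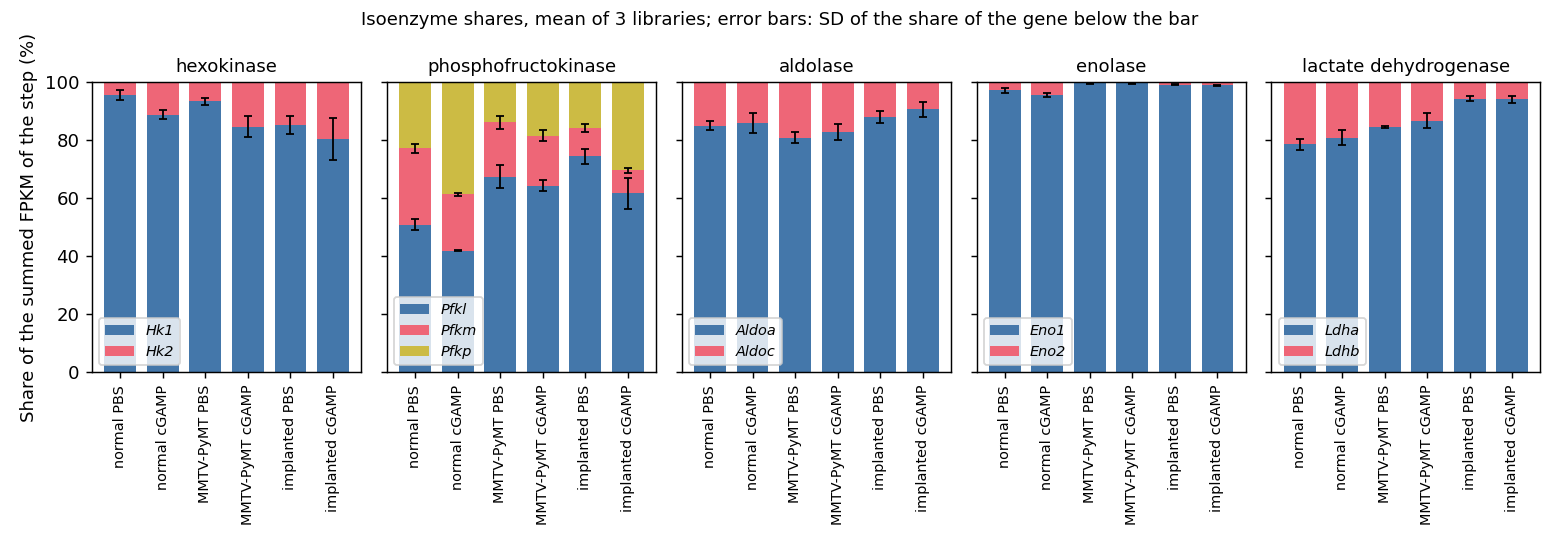
Share of each isoenzyme in the summed FPKM of its step, in percent, as the mean of 3 libraries per group; error bars give the SD of the share of the gene below the bar. Pfkp takes a larger share under cGAMP in each tissue, and Ldhb is at 5.57% in implanted PBS.

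The 2 HIF alpha subunits differed in opposite directions between normal and tumour ECs. Hif1a, the alpha subunit of HIF-1, was at 34.6, 38.3 and 39.8 FPKM in normal PBS, at 53.9, 49.0 and 44.0 in MMTV-PyMT PBS and at 54.6, 60.2 and 51.5 in implanted PBS. Every tumour library lay above every normal one. The log2 difference was 0.37 in MMTV-PyMT (adjusted p = 0.0161, limma) and 0.55 in implanted (adjusted p = 0.00145), and both calls were lost with the same FPKM sum (0.10 and 0.25). The MMTV-PyMT call was also lost without normal PBS 1 (0.32) or MMTV-PyMT PBS 1 (0.30). Epas1, the alpha subunit of HIF-2 and the more abundant form in ECs, was at 319, 317 and 357 FPKM in normal PBS, at 113, 83.2 and 78.9 in MMTV-PyMT PBS and at 157, 159 and 150.0 in implanted PBS. Normal ECs were highest and MMTV-PyMT ECs lowest. Its log2 difference from normal was -1.86 ± 0.17 in MMTV-PyMT (adjusted p = 2.92e-07, limma) and -1.09 ± 0.17 in implanted (adjusted p = 7.34e-05).

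Egln3, a hydroxylase that is itself a HIF target (chr12:54178981-54203860), gave the largest difference of all 34 genes. It was at 3.85, 4.31 and 3.54 FPKM in normal PBS, at 12.6, 17.6 and 18.8 in MMTV-PyMT PBS and at 53.2, 41.6 and 53.4 in implanted PBS. No tissue overlapped another. The log2 difference from normal was 1.81 ± 0.16 and 3.36 ± 0.16 (adjusted p = 2.41e-07 and 4.24e-10, limma), the latter a 12.7-fold ratio of mean FPKM. Egln1, the main oxygen sensor of the family, was 23.8 ± 1.88 FPKM in normal PBS, 16.1 ± 1.42 in MMTV-PyMT PBS and 28.0 ± 3.01 in implanted PBS, lower in MMTV-PyMT than in both others (log2 difference of -0.54 from normal, and 0.76 between implanted and MMTV-PyMT).

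Among the 11 hypoxia-induced genes, MMTV-PyMT ECs had 2 higher (18.2%, against 29.8% of all tested genes) and 6 lower (54.5%, against 26.6%) than normal ECs, with a median log2 of -0.33. Implanted ECs had 8 higher (72.7%, against 20.8%) and 1 lower (9.09%, against 24.6%) than MMTV-PyMT ECs (median 1.0). Against normal, implanted ECs had 5 higher (45.5%, against 25.0%) and 2 lower (18.2%, against 23.6%, median 0.21). P4ha1, a prolyl hydroxylase of collagen (chr10:59323296-59373304), was at 17.9, 17.3 and 23.5 FPKM in normal PBS, at 5.79, 6.64 and 5.59 in MMTV-PyMT PBS and at 23.4, 32.8 and 41.2 in implanted PBS. MMTV-PyMT lay below both, and the lowest implanted library touched the normal range. The log2 difference was -1.54 ± 0.18 between MMTV-PyMT and normal (adjusted p = 3.25e-06, limma) and 2.22 ± 0.18 between implanted and MMTV-PyMT (adjusted p = 2.35e-07). Its relative P4ha2 differed by -1.57 and 1.32 in the same comparisons.

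Adm, the vasodilator peptide adrenomedullin (chr7:110627661-110629820), was at 4.50, 5.83 and 5.24 FPKM in normal PBS, at 3.72, 6.27 and 5.54 in MMTV-PyMT PBS and at 21.0, 19.0 and 16.8 in implanted PBS. Only the implanted libraries stood apart. Implanted exceeded normal by 1.69 ± 0.16 (adjusted p = 5.25e-07, limma) and MMTV-PyMT by 1.71 ± 0.16 (adjusted p = 1.24e-06). The hypoxia-induced ankyrin repeat gene Ankrd37 was 0.957 ± 0.169 FPKM in normal PBS, 1.06 ± 0.245 in MMTV-PyMT PBS and 3.11 ± 0.360 in implanted PBS, called higher in implanted against both.

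Ddit4, an inhibitor of mTORC1 that stress and low oxygen induce, was at 118, 137 and 162 FPKM in normal PBS, at 68.1, 75.4 and 58.4 in MMTV-PyMT PBS and at 88.6, 108 and 99.9 in implanted PBS. Normal was highest and MMTV-PyMT lowest. Its log2 difference from normal was -1.03 in MMTV-PyMT and -0.48 in implanted (adjusted p = 9.59e-06 and 0.00716, limma). Ndrg1, a stress-responsive gene of differentiation, was 75.1 ± 6.98 FPKM in normal PBS, 39.8 ± 3.77 in MMTV-PyMT PBS and 82.5 ± 3.77 in implanted PBS. It was lower in MMTV-PyMT than in normal (log2 -0.90) and higher in implanted than in MMTV-PyMT (1.04), and the difference of 0.14 between implanted and normal was not called.

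Bnip3 and Bnip3l label mitochondria for removal. Bnip3 was 10.2 ± 2.24 FPKM in normal PBS, 4.70 ± 0.824 in MMTV-PyMT PBS and 15.3 ± 0.965 in implanted PBS (log2 -0.97 and 0.55 against normal). Its call in implanted against normal was lost with the same FPKM sum (0.27) and without normal PBS 1 (0.45), normal PBS 2 (0.50), implanted PBS 1 (0.52) or implanted PBS 3 (0.53). Bnip3l was lower than normal in both tumours (-0.33 and -0.28), the implanted call being lost without implanted PBS 1 (-0.23). Ero1l, an oxidase of protein folding, was higher by 0.36 and 0.95. The histone demethylase Kdm3a differed by 0.25 in MMTV-PyMT, where the call was lost with the same FPKM sum (0.00) and without normal PBS 2 (0.21) or MMTV-PyMT PBS 1 (0.17), and was lower in implanted than in MMTV-PyMT (-0.34). Higd1a, a mitochondrial protein, was at 2.35, 2.35 and 2.88 FPKM on average and was called in no tissue comparison. The same-sum scaling also ended the calls of Ero1l in MMTV-PyMT (0.11) and P4ha1 in implanted (0.39) against normal.

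**Figure D3:**
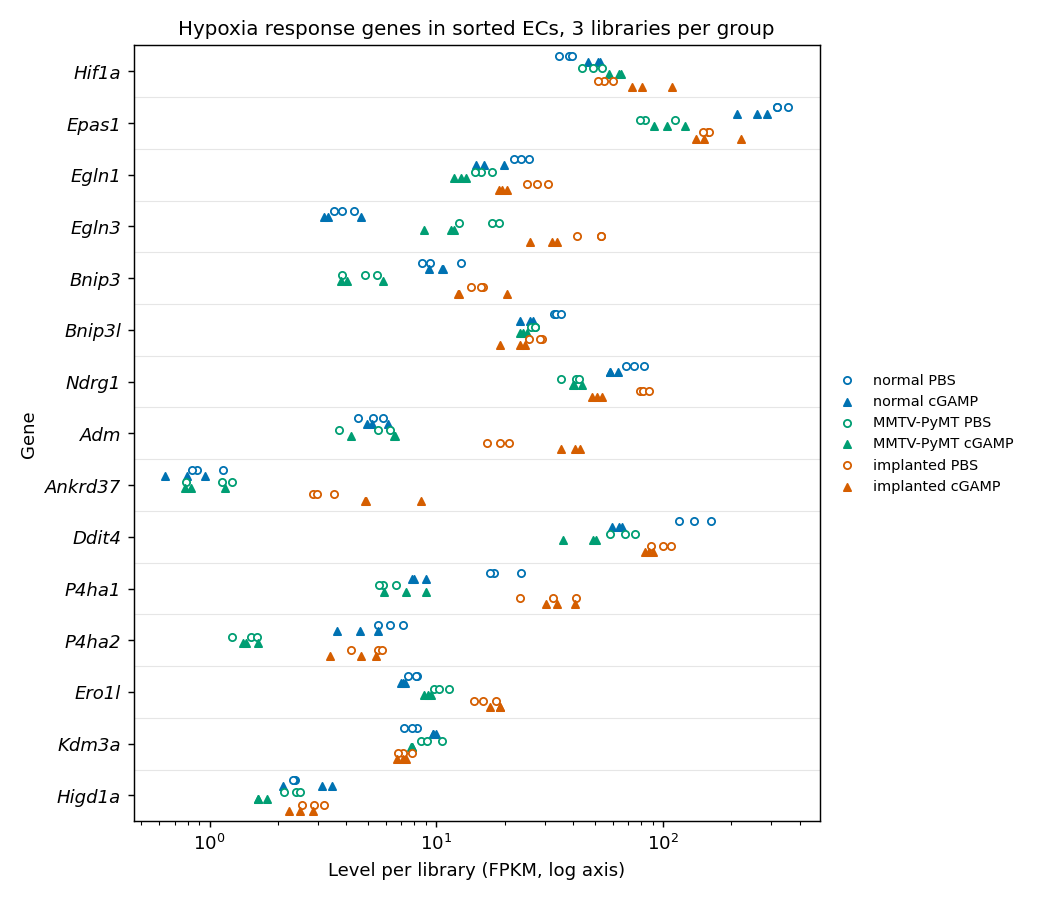
FPKM of the 15 hypoxia response genes in each of the 18 libraries on a log axis, circles for PBS and triangles for cGAMP, coloured by tissue. Egln3, Adm and Ankrd37 lie highest in implanted ECs, P4ha1 and P4ha2 lie lowest in MMTV-PyMT ECs, and Epas1 lies highest in normal ECs.

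Markers of other cells moved with the tissues. Of 9 epithelial and tumour markers, MMTV-PyMT ECs had 5 called higher and 1 lower than normal ECs, 3 higher and 2 lower in implanted than in normal, and 0 higher and 5 lower in implanted than in MMTV-PyMT. Of 9 mural cell and fibroblast markers, 5 and 6 were lower in MMTV-PyMT and implanted than in normal ECs, and 2 and 1 were higher. All 5 proliferation markers were higher in both tumours. Of 10 endothelial markers, 0 were higher and 6 lower in MMTV-PyMT than in normal ECs (median log2 -0.41), 5 higher and 2 lower in implanted than in normal (0.46), and 7 higher and 1 lower in implanted than in MMTV-PyMT (0.69). In the last comparison they moved the same way as most of the 34 genes. The part of these shifts in the differences above was not tested.

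cGAMP raised a short list of glycolytic regulators in all 3 tissues and left most enzymes of the pathway uncalled. The comparison asks how ECs of each tissue respond within 3 h. In normal ECs 8 of 34 genes rose (23.5%, against 13.7% of all tested genes) and 8 fell (23.5%, against 18.2%). The 8 that rose include Pfkfb4, which passed the filter on low levels only through its normal cGAMP libraries. In MMTV-PyMT ECs 3 rose (8.82%, against 7.42%) and 2 fell (5.88%, against 4.57%). In implanted ECs 8 rose (23.5%, against 20.3%) and 5 fell (14.7%, against 18.8%). Apart from that of the genes that rose in normal ECs, these shares lay near the background, and the 34 genes had median log2 changes of -0.04, -0.13 and -0.03, beside -0.04, -0.04 and -0.01 for all tested genes. With every library scaled to the same FPKM sum the median of all genes in implanted shifted by -0.20, and the split of the 34 genes there became 7 higher and 17 lower, while 12.1% of all tested genes were higher and 36.8% lower under that scaling.

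**Figure D4:**
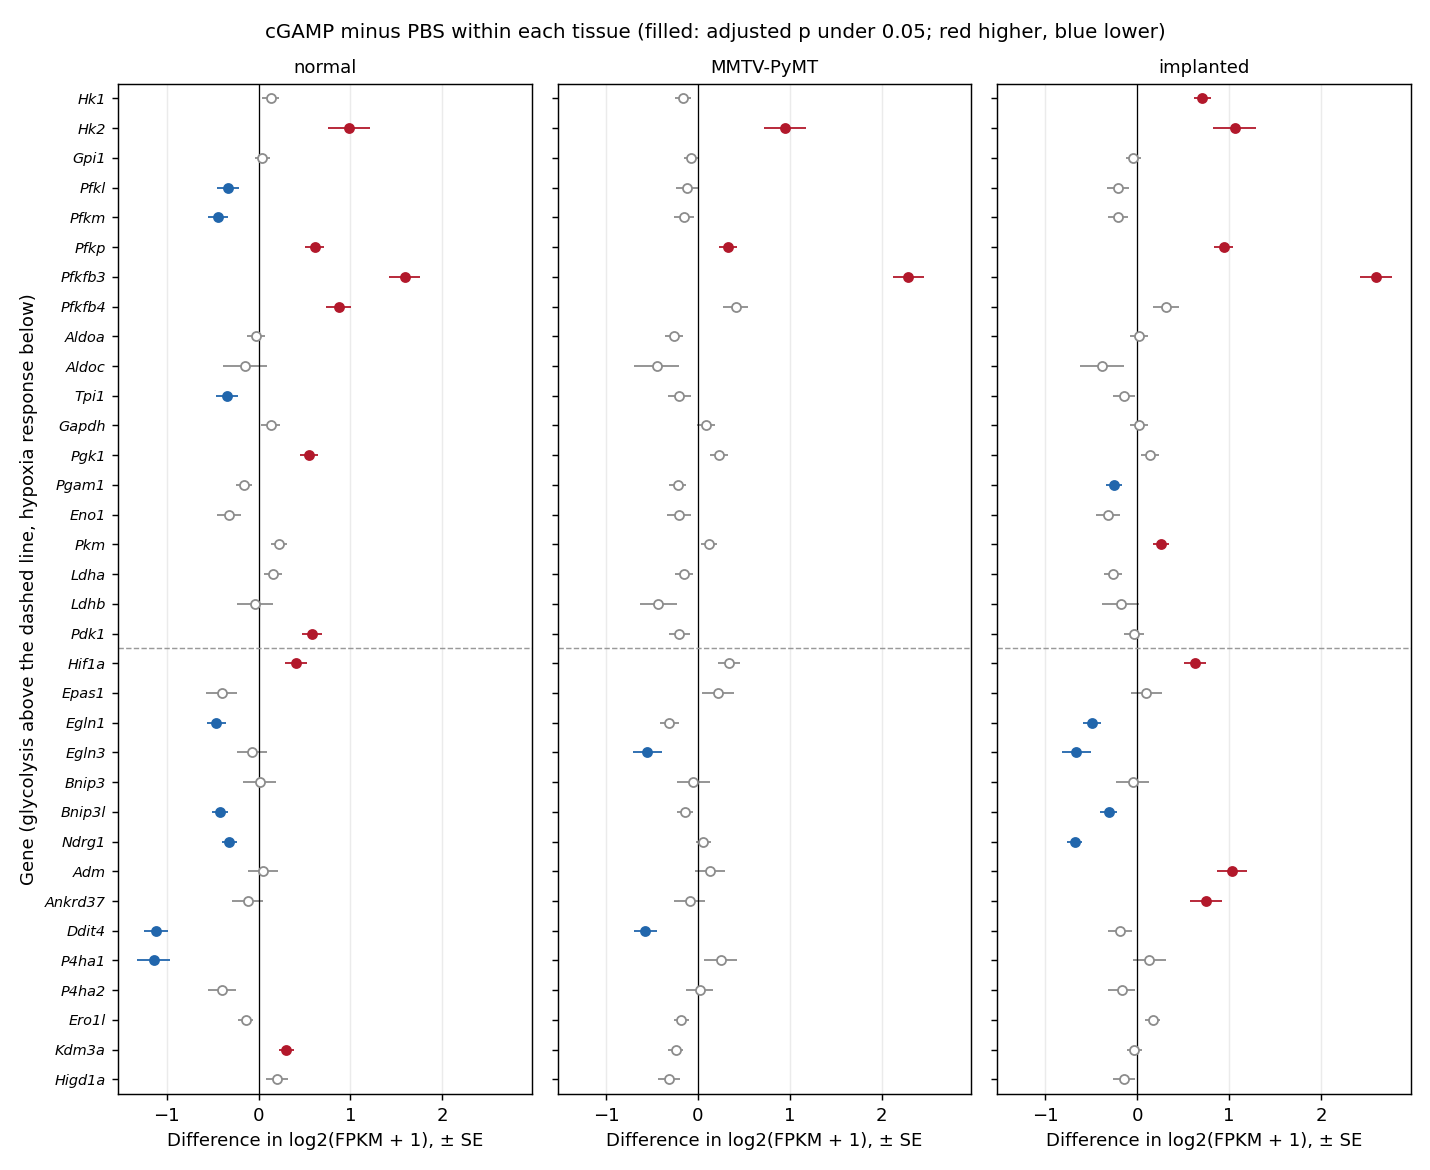
cGAMP minus PBS in log2(FPKM + 1) with standard errors for the 34 tested genes in normal, MMTV-PyMT and implanted ECs, 3 libraries per group; filled red points rose, filled blue points fell, open grey points were not called. Pfkfb3, Hk2 and Pfkp rose in each tissue. From Aldoa to Ldhb the only called genes were Pgk1 and Tpi1 in normal ECs and Pkm and Pgam1 in implanted ECs.

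On the log2(FPKM + 1) scale Pfkfb3 had the largest response of the 34 genes in each tissue. As a ratio of mean FPKM the scarce Pfkfb4 had a larger one in normal ECs (3.37 against 3.12). Under cGAMP Pfkfb3 was at 55.2, 63.8 and 64.0 FPKM in normal ECs, at 43.3, 59.7 and 48.5 in MMTV-PyMT ECs and at 248, 144 and 152 in implanted ECs. In each tissue every cGAMP library lay above every PBS library. Mean levels went from 19.6 ± 1.31 to 61.0 ± 5.03 FPKM (SD, n = 3), from 9.46 ± 1.26 to 50.5 ± 8.40 and from 28.3 ± 3.41 to 182 ± 57.7. The log2 change was 1.59 ± 0.17, 2.29 ± 0.17 and 2.60 ± 0.17 (adjusted p = 5.90e-06, 7.63e-08 and 7.98e-09, limma). Pfkfb4 rose in normal ECs by 0.87 (adjusted p = 0.000242, limma), from 0.546 to 1.84 FPKM, and its changes of 0.41 and 0.31 in the tumours were not called. Only in normal cGAMP did all its libraries reach 1 FPKM (1.42 to 2.43). It was thus tested only through the group in which it was called higher, and the filter favoured that call.

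Hk2 was at 2.72, 3.34 and 2.11 FPKM under cGAMP in normal ECs, at 7.64, 4.25 and 6.24 in MMTV-PyMT ECs and at 10.2, 18.4 and 10.1 in implanted ECs. All cGAMP libraries exceeded the PBS libraries of their tissue. It rose by 0.98, 0.95 and 1.06 on the log2 scale (adjusted p = 0.00473, 0.0145 and 0.00201, limma), the MMTV-PyMT call being lost without MMTV-PyMT PBS 3 (0.88), MMTV-PyMT cGAMP 1 (0.78) or MMTV-PyMT cGAMP 3 (0.91). Hk1 rose in implanted ECs, to 53.4 ± 6.71 FPKM (log2 0.71, adjusted p = 6.74e-06, limma), and its changes of 0.13 in normal and -0.16 in MMTV-PyMT ECs were not called.

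Of the phosphofructokinases, Pfkp rose and the other two did not. Pfkp was at 9.68, 10 and 9.15 FPKM under cGAMP in normal ECs, at 8.98, 10.8 and 8.16 in MMTV-PyMT ECs and at 25.5, 21.8 and 21.6 in implanted ECs. In each tissue these lay above the PBS libraries. The log2 change was 0.61, 0.33 and 0.94 (adjusted p = 0.000230, 0.0355 and 1.20e-06, limma). Its MMTV-PyMT call was lost with the same FPKM sum (0.28), in a fit of those 2 groups alone, and without MMTV-PyMT PBS 2 (0.35), MMTV-PyMT PBS 3 (0.26) or MMTV-PyMT cGAMP 2 (0.23). In normal ECs Pfkm fell by 0.44 (adjusted p = 0.00655, limma). Pfkl was at 10.5, 10.7 and 10.1 FPKM in normal cGAMP, below its PBS libraries, at 34.4, 31.6 and 31.8 in MMTV-PyMT cGAMP and at 38.1, 55.5 and 48.8 in implanted cGAMP. Its call in normal ECs (-0.33, adjusted p = 0.0456, limma) was lost when any of 13 single libraries was left out (-0.37 to -0.29), and its tumour changes (-0.12 and -0.21) were not called.

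From aldolase to pyruvate, 2 of 8 genes were called with cGAMP in normal ECs, 2 in implanted ECs and 0 in MMTV-PyMT ECs. Those of normal ECs were 1 higher and 1 lower (12.5% each, against 13.7% and 18.2% of all tested genes). Those of implanted ECs were also 1 higher and 1 lower (12.5% each, against 20.3% and 18.8%). For MMTV-PyMT ECs the shares of all tested genes were 7.42% and 4.57%. Each share of the 8 genes lay below that of all tested genes, and the difference was not tested. Pgk1 was at 28.4, 33.0 and 24.0 FPKM in normal cGAMP, at 44.5, 42.9 and 38.8 in MMTV-PyMT cGAMP and at 97.6, 110.0 and 101 in implanted cGAMP. In each tissue these lay above the PBS libraries, narrowly so in the tumours. It rose in normal ECs by 0.55 (adjusted p = 0.000655, limma), and the changes of 0.23 and 0.14 in the tumours were not called. Tpi1, the triose phosphate isomerase, fell by 0.34 in normal ECs, a call that was lost without any of the 3 normal PBS libraries (-0.38 to -0.31) or without normal cGAMP 1 (-0.32) or 2 (-0.32). Pkm was at 67.8, 70.2 and 61.1 FPKM in normal cGAMP, at 162, 168 and 185 in MMTV-PyMT cGAMP and at 381, 361 and 327 in implanted cGAMP. Normal and implanted libraries lay above their PBS groups, and MMTV-PyMT libraries overlapped theirs. Its call in implanted ECs (0.26, adjusted p = 0.0287, limma) became -0.01 with the same FPKM sum and was lost without implanted PBS 1 (0.27), implanted PBS 3 (0.20), implanted cGAMP 1 (0.21) or implanted cGAMP 2 (0.25).

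Pgam1 fell in implanted ECs by 0.25 (adjusted p = 0.0448, limma), and that call was lost when any of 9 single libraries was left out (-0.25 to -0.22). Aldoc, at 10.9, 15.6 and 10.2 FPKM in normal cGAMP, 39.0, 27.6 and 33.3 in MMTV-PyMT cGAMP and 12.8, 27.4 and 23.6 in implanted cGAMP, overlapped its PBS levels in each tissue and was not called. Ldha was at 73.3, 74.5 and 64.9 FPKM in normal cGAMP, at 193, 193 and 181 in MMTV-PyMT cGAMP and at 140.4, 185 and 164 in implanted cGAMP. Only in implanted ECs were all cGAMP libraries below all PBS libraries, and the change of -0.26 there was not called (adjusted p = 0.0550, limma). Ldhb, at 14.3, 17.6 and 18, at 32.7, 21.8 and 31.6 and at 6.47, 13.0 and 11.3 FPKM in the 3 tissues, was not called either. Aldoa, Gapdh, Eno1 and Gpi1 gave log2 changes between -0.32 and 0.13, none of them called. Pdk1 rose in normal ECs by 0.58 (adjusted p = 0.00118, limma), from 3.42 ± 0.432 to 5.63 ± 0.851 FPKM.

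**Figure D5:**
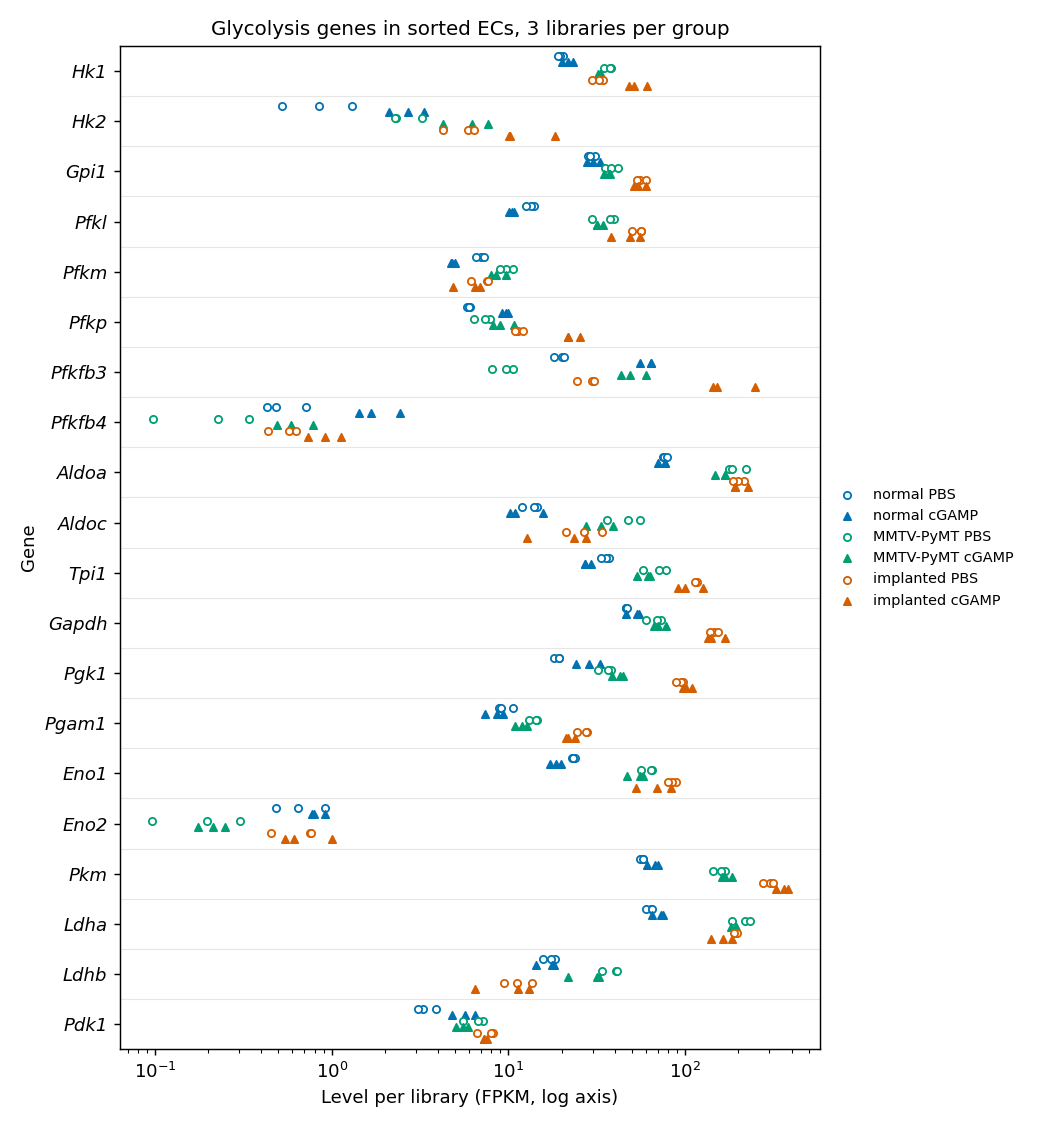
FPKM of the 20 glycolysis genes in each of the 18 libraries on a log axis, circles for PBS and triangles for cGAMP, coloured by tissue. For Pfkfb3, Hk2 and Pfkp the triangles of each tissue lie to the right of its circles, and Eno2 and Pfkfb4 lie near or under 1 FPKM in most groups.

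In the oxygen sensing branch, Hif1a was called higher in normal and implanted ECs, and 1 or both hydroxylases lower in each tissue. Hif1a was at 51.5, 52.5 and 46.7 FPKM in normal cGAMP, at 57.8, 64.0 and 65.2 in MMTV-PyMT cGAMP and at 109, 80.6 and 73.0 in implanted cGAMP. Each cGAMP group lay above its PBS group without overlap. The log2 change was 0.41 in normal (adjusted p = 0.0174, limma) and 0.63 in implanted ECs (adjusted p = 0.000666), and the 0.34 in MMTV-PyMT ECs missed the threshold (adjusted p = 0.0790). The call in normal ECs was lost without normal PBS 1 (0.35), normal cGAMP 1 (0.39) or normal cGAMP 2 (0.38). Egln1 fell in normal (-0.46) and implanted ECs (-0.49), with -0.31 in MMTV-PyMT ECs (adjusted p = 0.0647, limma, not called).

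Egln3 was at 3.18, 4.64 and 3.32 FPKM in normal cGAMP, at 11.9, 8.86 and 11.6 in MMTV-PyMT cGAMP and at 25.9, 32.5 and 34.1 in implanted cGAMP. Normal groups overlapped, and both tumours lay lower under cGAMP than under PBS. It fell by 0.55 in MMTV-PyMT ECs (adjusted p = 0.0375, limma) and by 0.66 in implanted ECs (adjusted p = 0.00430). The MMTV-PyMT call was lost in a fit of those 2 groups alone and without MMTV-PyMT PBS 2 (-0.49), MMTV-PyMT PBS 3 (-0.44), MMTV-PyMT cGAMP 2 (-0.43) or MMTV-PyMT cGAMP 3 (-0.60). Epas1 was at 259, 212 and 288 FPKM in normal cGAMP, at 91.3, 125 and 104 in MMTV-PyMT cGAMP and at 221, 139 and 152 in implanted cGAMP, with changes of -0.40, 0.22 and 0.10 that were not called.

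Of the 11 hypoxia-induced genes, 1 rose and 4 fell with cGAMP in normal ECs (9.09% and 36.4%, against 13.7% and 18.2% of all tested genes, median log2 -0.14). In MMTV-PyMT ECs 0 rose and 1 fell (9.09%, against 4.57%, median -0.09), and in implanted ECs 2 rose and 2 fell (18.2% each, against 20.3% and 18.8%, median -0.05). Ddit4 was at 59.4, 64.2 and 66.0 FPKM in normal cGAMP, at 36.1, 49.2 and 50.5 in MMTV-PyMT cGAMP and at 90.2, 83.4 and 86.3 in implanted cGAMP. It fell clear of the PBS range in normal and MMTV-PyMT ECs and overlapped it in implanted ECs. The log2 change was -1.12 ± 0.13 (adjusted p = 1.80e-05, limma) in normal, -0.57 in MMTV-PyMT (adjusted p = 0.0109, lost without MMTV-PyMT PBS 2, -0.49) and -0.19 in implanted ECs (not called).

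P4ha1 was at 7.98, 7.78 and 9.04 FPKM in normal cGAMP, at 5.85, 8.97 and 7.38 in MMTV-PyMT cGAMP and at 41.0, 34.1 and 30.3 in implanted cGAMP. Only normal ECs separated, and there it fell by 1.14 ± 0.18 on the log2 scale (adjusted p = 0.000219, limma). Adm was at 5.18, 4.94 and 6.14 FPKM in normal cGAMP, at 4.22, 6.48 and 6.55 in MMTV-PyMT cGAMP and at 40.8, 43.1 and 35.4 in implanted cGAMP. It rose in implanted ECs, where no library overlapped, by 1.03 ± 0.16 (adjusted p = 0.000115, limma), and changes of 0.05 and 0.13 elsewhere were not called. Ankrd37 rose in implanted ECs from 3.11 ± 0.360 to 6.08 ± 2.14 FPKM (0.75, adjusted p = 0.00212, limma).

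Ndrg1 fell in implanted ECs by 0.68 (from 82.5 ± 3.77 to 51.2 ± 2.32 FPKM) and in normal ECs by 0.32. Bnip3l fell by 0.42 in normal and by 0.31 in implanted ECs, where the call was lost in a fit of those 2 groups alone and without implanted cGAMP 3 (-0.20). Kdm3a rose in normal ECs by 0.30, a call lost without normal PBS 2 (0.25). Bnip3, P4ha2, Ero1l and Higd1a were called in no tissue, with log2 changes from -0.40 to 0.20. Beside these results, 1 of 8 leukocyte markers (12.5%) was called higher with cGAMP in each tissue. Of all tested genes 13.7%, 7.42% and 20.3% were called higher in normal, MMTV-PyMT and implanted ECs. The median log2 change of the leukocyte markers was -0.47, -0.04 and 0.80 there, beside -0.04, -0.04 and -0.01 for all tested genes. Their sum spread from 131 to 427 FPKM in implanted cGAMP, so the count of calls does not show that they stayed level there. In implanted ECs 3 of 9 mural cell and fibroblast markers were called higher (33.3%). In normal ECs, where Ddit4 and P4ha1 fell, 2 of 10 endothelial, 1 of 9 mural and 2 of 9 epithelial markers were called lower, and in implanted ECs 1 endothelial and 2 epithelial markers were. The part of these shifts in the changes was not tested.

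Whether the cGAMP effect itself differed between tissues was tested as a difference of effects, in comparisons that share libraries. Between implanted and MMTV-PyMT, 5 of 34 genes were called (14.7%, against 11.1% of all tested genes), between implanted and normal 8 (23.5%, against 18.6%), and between MMTV-PyMT and normal 3 (8.82%, against 8.37%). Hk1 responded more in implanted ECs than in MMTV-PyMT (0.87 ± 0.12, adjusted p = 0.000345, limma) and normal ECs (0.58 ± 0.12, adjusted p = 0.00331). For Adm the excess in implanted ECs was 0.90 over MMTV-PyMT and 0.98 over normal (adjusted p = 0.0187 and 0.00761), and for Ndrg1, which fell in implanted ECs and was at 39.8 and 41.5 FPKM with PBS and cGAMP in MMTV-PyMT ECs, the difference of effect was -0.74 (adjusted p = 0.000858, limma). The Adm call against MMTV-PyMT was lost without implanted PBS 3 (0.82) or MMTV-PyMT PBS 2 (0.77).

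Pfkfb3 responded more in implanted than in normal ECs (1.01 ± 0.24, adjusted p = 0.00818, limma), and the gaps of 0.31 to MMTV-PyMT and of 0.70 between MMTV-PyMT and normal were not called (adjusted p = 0.480 and 0.0848). For P4ha1 both tumours differed from normal (1.27 in implanted, 1.39 in MMTV-PyMT, adjusted p = 0.00250 and 0.00515), as for Pdk1 (-0.61 and -0.79, adjusted p = 0.0138 and 0.00842). Ddit4 differed between implanted and normal (0.93, adjusted p = 0.00290). With the same FPKM sum, under which the median of all genes shifted by -0.16 and -0.22 in the comparisons with implanted, the calls of Hk1 (0.29) and Pfkfb3 (0.71) against normal and of Pfkp (0.40), Adm (0.68) and Ankrd37 (0.63) against MMTV-PyMT were lost. Hk2 (0.11, 0.07 and -0.04) and Hif1a (0.29, 0.22 and -0.07) were called in none of the 3 differences, with standard errors of 0.33 and 0.17.

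The pathway around these genes was read through a further 49 genes of glucose and lactate transport, glycogen use, pyruvate entry into mitochondria and HIF targets, of which 47 were in the table and 46 were tested. Under PBS, MMTV-PyMT ECs had 24 higher (52.2%, against 29.8% of all tested genes) and 10 lower (21.7%, against 26.6%) than normal ECs. With the same FPKM sum the 24 became 14, against 17.2% of all tested genes. Implanted ECs had 20 higher (43.5%, against 25.0%) and 12 lower (26.1%, against 23.6%) than normal ECs, and 12 higher (26.1%, against 20.8%) and 13 lower (28.3%, against 24.6%) than MMTV-PyMT ECs, shares near the background. Slc2a1, the glucose transporter GLUT1 (shown for its place at the entry of the pathway, and chosen after its values were seen), averaged 20.7 FPKM in normal PBS, 31.6 in MMTV-PyMT PBS and 62.9 in implanted PBS. The lactate exporter Slc16a3 was at 1.03, 0.821 and 14.2 FPKM (log2 difference of 3.05 between implanted and MMTV-PyMT), Ak4, a mitochondrial adenylate kinase, at 0.808, 0.997 and 7.46 (2.12) and Vegfa, the angiogenic growth factor, at 4.12, 2.80 and 12.6 (1.84). Car12, a carbonic anhydrase of the cell surface, was at 0.304 FPKM in normal and 36.2 in MMTV-PyMT PBS (4.83 against normal, and 3.15 in implanted). Called lower than in normal ECs were Pdk4, a relative of Pdk1 (log2 difference of -3.19 in MMTV-PyMT), the insulin-responsive glucose transporter Slc2a4 (-2.07 in MMTV-PyMT) and the secreted hormone Stc2 (-2.84 in implanted).

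With cGAMP, 11 of the 46 rose in normal ECs (23.9%, against 13.7% of all tested genes) and 6 fell (13.0%, against 18.2%). In MMTV-PyMT ECs 4 rose (8.70%, against 7.42%) and 8 fell (17.4%, against 4.57%). These MMTV-PyMT counts depended on single libraries: leaving out 1 at a time gave 1 to 4 higher and 0 to 10 lower. Among implanted ECs 11 rose (23.9%, against 20.3%) and 9 fell (19.6%, against 18.8%), shares near the background. With the same FPKM sum these implanted counts became 7 and 21, against 12.1% and 36.8% of all tested genes. Pgm2, a phosphoglucomutase that links glycogen and glycolysis, rose in each tissue, from 13.4 to 40.7, from 17.4 to 35.6 and from 25.3 to 57.1 FPKM (log2 1.51, 0.99 and 1.13, adjusted p = 1.13e-06, 0.000127 and 9.50e-06, limma). In normal ECs Wsb1, a HIF-induced ubiquitin ligase subunit, rose by 1.17 and Hmox1, haem oxygenase, by 0.91, and in MMTV-PyMT ECs Pdk4 rose by 0.85. The transcriptional repressor Bhlhe41 fell by 0.82 in MMTV-PyMT and by 0.96 in implanted ECs, and Pdk2 fell by 1.17 in implanted ECs. The effect differed for 6 of the 46 genes between implanted and MMTV-PyMT (13.0%, against 11.1% of all tested genes). The largest of these differences were those of Pdk3 (1.20), Bhlhe40 (1.15) and the monocarboxylate transporter Slc16a1 (0.81). Between implanted and normal it differed for 9 (19.6%, against 18.6%), led by the collagen crosslinker Lox (1.35), Pdk3 (0.98) and the transferrin receptor Tfrc (-0.91). Between MMTV-PyMT and normal it differed for 4 (8.70%, against 8.37%), led by the carbonic anhydrase Car9 (-0.78), Fam162a (0.70) and Hmox1 (-0.68). All of these shares lay near the background.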

How the data were processed

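The samples were sorted ECs of 3 tissues, each with PBS or cGAMP, and groups were taken from the sample titles. Strand-specific libraries (NEBNext Ultra II) were sequenced from both ends on a NextSeq 500. According to the methods and the labels, the authors checked reads with FastQC, aligned them to mm10 with STAR 2.7 and counted them with HTSeq-count. The authors deposited FPKM values for 16248 genes, and the step from counts to FPKM is not given in the sources used here. No value was 0 (the smallest was 0.00454), so the table holds genes detected in all 18 libraries. The column names of 12 libraries name the tumour, and the other 6 were taken as normal fat pad, the remaining tissue. For 16247 genes every value was a whole multiple of what 1 read is worth, so that whole reads were recovered (99.99% of the table, tolerance 0.05 reads). Total reads per library differed 1.33-fold. The library size implied by the values was 1.15 times the recovered reads in normal PBS 1. In the implanted cGAMP libraries it lay below the recovered reads (0.735, 0.811 and 0.83 times), so it was not the plain read total. Reads carry no molecular identifiers. Annotation was GENCODE M21 on GRCm38, the assembly that mm10 names, and coordinates count from 1.

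Genes with at least 1 FPKM in at least 3 libraries were tested (13983, with 2265 below). A model with 1 mean per group was fitted to log2(FPKM + 1) over all 18 libraries with limma 3.58.1 (empirical Bayes with a trend, 2-sided) in R 4.3.3, for 9 comparisons: cGAMP against PBS in each tissue, the differences of that effect between tissues, and the tissues under PBS. P-values were adjusted with the Benjamini-Hochberg method over all tested genes, and a gene was called at an adjusted p under 0.05. Log2 differences are on the log2(FPKM + 1) scale, on which the change of a low gene comes out too small, and fold is the ratio of mean FPKM. The code was tested on simulated data. The chi-square per gene between replicates was 4.10 or more in all pairs, above sampling noise, so they were counted as separate libraries. It was largest between the implanted cGAMP libraries (31.6, 18.6 and 17.4), while the fit shared 1 estimate of spread among all groups. For cGAMP in implanted ECs a fit of only the groups compared called 26.2% of all tested genes, against 39.1% in the main fit. Each group is said to hold 3 mice, from 3 independent experiments. Which library came from which experiment is not given in the sources used here, so experiments were not in the model. The p-values measure the spread between these libraries.

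The 35 genes, the 49 further pathway genes and the marker lists were chosen with earlier results of these data known. Every one of the 35 genes was described, and values in every library were given for the 4 with the largest change among those called in each cGAMP or tissue comparison, and for Hif1a, Ldha, Hk2 and Pfkfb3. Of the further pathway genes, up to 3 with the largest change among those called were named per comparison. Alternatives were a pseudocount of 0.1, no filter on low values, each library scaled to the same FPKM sum, voom on the recovered reads, a log2 limit of 1, a fit of only the groups compared, a replicate block, and leaving out each library in turn.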

Additional observations from a re-analysis of the deposited data

Results flagged for a closer look

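Several genes were singled out because the test of the difference in cGAMP effect between 2 tissues passed the threshold (limma, Benjamini-Hochberg adjustment over 13983 genes), not because a single library stood far from its group, which groups of 3 do not allow to be tested. Each value is the cGAMP effect in the tissue named before minus that in the tissue named after, on the log2 scale.

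Among glycolysis genes, Hk1 differed by 0.87 in implanted minus MMTV-PyMT (adjusted p = 0.000345, limma) and by 0.58 in implanted minus normal (adjusted p = 0.00331). Pfkp differed by 0.61 in implanted minus MMTV-PyMT (adjusted p = 0.00816) and Pfkfb3 by 1.01 in implanted minus normal (adjusted p = 0.00818). For Pdk1 the difference was -0.61 in implanted minus normal (adjusted p = 0.0138) and -0.79 in MMTV-PyMT minus normal (adjusted p = 0.00842).

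Among hypoxia response genes, the difference of Ndrg1 was -0.74 in implanted minus MMTV-PyMT (adjusted p = 0.000858, limma) and -0.36 in implanted minus normal (adjusted p = 0.0450). The latter was lost when any of 13 single libraries was left out (-0.39 to -0.29), in 3 other alternatives as well. Adm differed by 0.90 in implanted minus MMTV-PyMT (adjusted p = 0.0187) and by 0.98 in implanted minus normal (adjusted p = 0.00761). Ankrd37 differed by 0.84 and 0.87 in the same comparisons (adjusted p = 0.0294 and 0.0163, limma). The first of these was lost when any of 6 single libraries was left out (0.77 to 0.81), and in 4 other alternatives as well. The second was lost with voom on the recovered reads (1.17). Ddit4 differed by 0.93 in implanted minus normal (adjusted p = 0.00290). P4ha1 differed by 1.27 in implanted minus normal (adjusted p = 0.00250) and by 1.39 in MMTV-PyMT minus normal (adjusted p = 0.00515), and Kdm3a by -0.54 in MMTV-PyMT minus normal (adjusted p = 0.00946).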

How the results depend on the processing

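Under 24 alternatives the genes called in every one numbered 12 of 16, 1 of 5 and 10 of 13 for cGAMP in normal, MMTV-PyMT and implanted ECs, 2 of 5, 4 of 8 and 3 of 3 for the differences of effect (implanted minus MMTV-PyMT, implanted minus normal, MMTV-PyMT minus normal), and 24 of 30, 21 of 27 and 25 of 26 for MMTV-PyMT against normal, implanted against normal and implanted against MMTV-PyMT. The log2 limit of 1 counts only larger changes by construction. It left 1 higher and 2 lower, 1 and 0, and 3 and 0 for cGAMP in these tissues, 0, 2 and 1 for the differences of effect, and 8 and 4, 13 and 1, and 10 and 1 for the tissues. The share of all tested genes over that limit is not given here. With the same FPKM sum, 17 were lower with cGAMP in implanted ECs (against 36.8% of all tested genes). Under it 3 and 14 were called for implanted minus MMTV-PyMT and minus normal (against 10.9% and 20.9%). The effect of Pkm in implanted ECs turned to -0.01 there. The FPKM sums of the libraries differed, and the cause was not tested. With only the groups compared, 1 was lower in MMTV-PyMT and 3 in implanted ECs, in fits with fewer libraries. Of all tested genes 3.93% and 11.2% were lower there.

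Leaving out 1 library at a time gave 7 to 9 higher and 6 to 10 lower with cGAMP in normal ECs, 1 to 4 and 1 to 3 in MMTV-PyMT ECs (1 higher without MMTV-PyMT PBS 3, and 1 lower without MMTV-PyMT PBS 2, PBS 3, cGAMP 2 or cGAMP 3), and 7 to 8 and 3 to 8 in implanted ECs (8 lower without implanted cGAMP 2, 3 without implanted cGAMP 3). The differences of effect gave 3 to 6 (3 without MMTV-PyMT PBS 2), 7 to 10 and 3 to 5 (5 without implanted cGAMP 1). The tissues gave 18 to 21 and 9 to 10, 21 to 23 and 3 to 4, and 22 to 23 and 3 to 5. A replicate block gave 8 higher and 7 lower in normal, 3 and 2 in MMTV-PyMT and 8 and 5 in implanted ECs. Libraries with the same number did not deviate together (correlations of deviations from -0.35 to 0.29, median -0.01, with 0 libraries best with their own number). So no pairing by number was seen. Pairing by experiment under other numbers was not tested. Genes under 1 FPKM, such as Eno2 and Pfkfb4, rest on few reads.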
